A study of Homo sapiens with 8 samples.

Results

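The ephrins and their EPH receptors, the semaphorins, and the plexins and neuropilins that receive them were examined in SUM159 trailblazer cells. The members were all platform genes with a symbol of the form EPHA or EPHB plus a number, EFNA or EFNB plus a number, SEMA plus a number and a letter, or PLXNA to PLXND, together with NRP1 and NRP2. The rule found 52 genes among 20042 named on the array: 13 EPH receptors, 8 ephrins, 20 semaphorins, 9 plexins and 2 neuropilins. The receptor gene EPHB2 was not among them. Of the 47304 probes, 17191 had no entry in the annotation used. SUM159 is a human triple-negative breast cancer line of mesenchymal character, and trailblazer cells are a highly invasive subpopulation of it. Every culture carried a pLIX vector, a lentiviral vector in which doxycycline switches on the insert. The vector was either empty or encoded V5-tagged ΔNp63α, an isoform of the transcription factor p63 that lacks the N-terminal transactivation domain and is made by basal epithelial cells. Each vector line was kept without doxycycline or with 1 ug/ml of it, all for 5 days. The 4 groups had 2 Illumina bead arrays each. The labels do not say whether the lines were single clones or pools, nor whether the replicates were grown apart, so each p-value covers the spread between arrays alone, and that spread may be technical.

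EPH receptors are receptor tyrosine kinases that bind ephrins on the surface of neighbouring cells, and both partners signal, commonly to repel, sort or retract cells. A-type ephrins are held by a lipid anchor and B-type ephrins span the membrane. Semaphorins are guidance cues. Those of class 3 are secreted. Most of them act through a complex of a neuropilin, which binds the ligand, and an A-type plexin, which signals to small GTPases. Most membrane-bound semaphorins bind plexins directly. The families were first described in axon guidance and are also studied in the movement and invasion of carcinoma cells.

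The labelled cell type was checked against fixed markers. VIM, CD44 and AXL were above background on 8 of 8 arrays and ZEB1 on 6. Of the epithelial and luminal genes CDH1 and KRT19 were above background on 0 arrays, ESR1 on 1 and EPCAM on 3, and endothelial PECAM1, CDH5 and VWF on 0. Among blood cell markers PTPRC was above background on 0 arrays, CD3E on 1 and CD14 on 8, the last at 120.1 to 142.9. Rank correlations over the kept probes lay between 0.970 and 0.975 within groups and between 0.954 and 0.975 across groups. AXL was lower on induction (log2 difference -0.64 ± 0.12, limma adjusted p = 0.018). Between the treated lines, AXL (-0.54 ± 0.12, adjusted p = 0.019) and VIM (-0.40 ± 0.10, adjusted p = 0.025) were lower in the ΔNp63α line. The part of these markers' shift in the results that follow was not tested. TP63 itself was not analysed here, so the labels were not checked against the induced gene.

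Most of the family could be measured, although many probes were dim. A probe counted as above background if its deposited intensity exceeded 114.3, and a gene was tested if its probe did so on both arrays of at least 1 group. By this rule 36 members were tested: 8 EPH receptors, 5 ephrins, 14 semaphorins, 7 plexins and both neuropilins. Of these, 25 were above background in all 4 groups and 11 in only some, so those 11 depended on the group in which they were bright. The receptors NRP1, PLXNB2, EPHA3, EPHA2 and EPHB4 and the ligands EFNB2, SEMA3C and SEMA3E were among those above background on all 8 arrays.

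The other 16 members were above background on both arrays of no group, with intensities from 98.6 to 124.1. They were the receptors EPHA1, EPHA5, EPHA7, EPHB1 and EPHB3, the ephrins EFNA2, EFNA3 and EFNA5, the semaphorins SEMA3G, SEMA4A, SEMA5B, SEMA6A, SEMA6C and SEMA6D, and the plexins PLXNB3 and PLXNC1. Ephrin-A5, a high-affinity ligand of the EPHA3 receptor, was thus below background on 7 of 8 arrays, with 114.9 on 1 induced ΔNp63α array. Of these 16 genes, 8 were above background on 0 arrays, 6 on 1 and 2 on 2. The second induced ΔNp63α array showed 5 of them above background and the first showed 0. A low level of these genes was not detectable on these arrays.

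**Figure D1:**
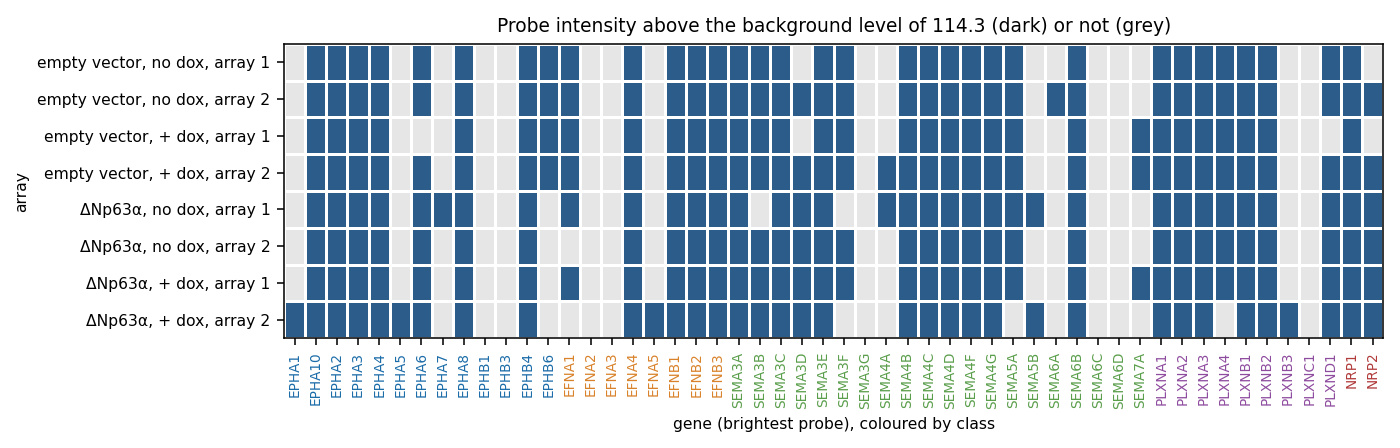
Each column is 1 of the 52 genes (its brightest probe, name coloured by class) and each row 1 of the 8 arrays; dark cells mark an intensity above the background level of 114.3. The 25 genes above background in all 4 groups form unbroken dark columns, and 16 genes are not dark on both arrays of any group.

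Induction of ΔNp63α in its own line was the comparison the design turns on. With it, 1 of 36 tested members (2.78%) passed the test, the receptor EPHA3, which fell, and 0 rose. The test was limma across all 12385 genes with Benjamini-Hochberg adjustment at 0.05. Of all genes 2.73% passed it, 1.43% higher and 1.3% lower, a share close to that of the members. At an unadjusted p under 0.05 there were 7 members, against 13.6% of all genes. The values behind these genes are given next, array by array, as deposited intensities on a linear scale, followed by log2 differences.

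EPHA3 (probe ILMN_1775931; chromosome 3, 89107621 to 89482134, GRCh38.p14) encodes a receptor of A-type ephrins. Its intensity was 310.5 and 427.9 on the uninduced ΔNp63α arrays and 241.7 and 241.5 on the induced ones. In the empty-vector line it was 402.5 and 347.0 without doxycycline and 362.0 and 386.3 with it. Both induced ΔNp63α arrays were thus below all 6 others, while the uninduced pair of the same line spanned the widest range. The log2 difference on induction was -0.70 ± 0.16 (SE, n = 2 arrays per group), a level 1.62-fold lower (limma adjusted p = 0.037). In bulk RNA, fewer cells with a transcript and less of it per cell cannot be told apart. In the empty-vector line doxycycline gave a log2 difference of 0.00 with a 95% interval from -0.34 to 0.34.

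The EPHA3 call depended on single arrays and on the probe. Limma no longer called EPHA3 (adjusted p in parentheses) without either uninduced empty-vector array (0.064 each, at an unchanged -0.70), without uninduced ΔNp63α replicate 2 (log2 difference -0.43, 0.213), without induced ΔNp63α replicate 1 (-0.70, 0.120) or replicate 2 (-0.70, 0.156). It was also lost with no background correction (-0.59, 0.092) and with only the 4 arrays compared (-0.70, 0.104). A dimmer EPHA3 probe, ILMN_1782076, was above background on all 8 arrays at 124.1 to 169.6 and read -0.10, and with the mean of the kept probes EPHA3 stood at -0.40 (adjusted p = 0.147). Which of the probes follows the transcript was not tested.

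The 250 bases before the annotated EPHA3 start are shown because EPHA3 was the member called on induction. They lie at chr3:89107371-89107620 on the plus strand of GRCh38.p14, in RefSeq's annotation. Capitals mark the letters CATG, the core of many sites of the p53 family, to which p63 belongs. CATG reads the same on both strands and can lie within the longer element described next. It was chosen after the promoter had been searched for that element.
EPHA3: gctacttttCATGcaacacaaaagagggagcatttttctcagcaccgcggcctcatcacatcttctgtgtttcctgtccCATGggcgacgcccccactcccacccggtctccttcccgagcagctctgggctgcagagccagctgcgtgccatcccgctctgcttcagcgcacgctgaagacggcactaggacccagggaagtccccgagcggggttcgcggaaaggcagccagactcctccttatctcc
CATG occurred at 2 places, which start at positions -241 and -171 relative to the annotated start. At least 1 CATG was present in 48.6% of 27305 promoters of the same length, and 2 or more in 17.7%. The p53-family consensus element of 10 bases, searched on both strands, was not found in these 250 bases. It was found in 1 of the 31 tested members that had a promoter in the table, SEMA3F, and in 5.57% of all promoters. A match is no evidence of binding, and a missing match says only that these letters are not in this window.

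Among the other EPH receptors none passed the test on induction. EPHB4, the receptor of ephrin-B2 in vessels, read 338.6 and 285.1 on the uninduced ΔNp63α arrays, 280.5 and 233.1 on the induced ones, and 245.6 to 272.7 in the empty-vector line. The uninduced ΔNp63α arrays were the high ones: the log2 difference on induction was -0.33 ± 0.14 (limma adjusted p = 0.299), and that between the lines without doxycycline 0.37 ± 0.14 (adjusted p = 0.406). EPHA2, a receptor abundant in many epithelial cancers, read 258.9 and 276.8 without and 241.6 and 253.9 with induction, a log2 difference of -0.14 ± 0.11 (adjusted p = 0.664). EPHA8, a receptor known mainly from the nervous system, read 127.0 and 123.4 without and 129.6 and 136.5 with induction, at 0.13 ± 0.10 (adjusted p = 0.652). EPHA4, EPHA6 and EPHA10 had log2 differences from -0.09 to 0.01. EPHB6 was not above background in either ΔNp63α group, so no difference is given, though its fitted value enters the median. The median of the 8 receptors was -0.09, against -0.01 over all genes tested.

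The ephrins had a median log2 difference of -0.09 on induction, and 0 of 5 passed the test in limma, 0 also at an unadjusted p under 0.05. EFNB2 (ILMN_1703852; chromosome 13, 106489745 to 106535662), a transmembrane ephrin that binds EPHB4, read 639.9 and 794.5 without and 614.6 and 616.1 with induction. The groups did not overlap, but the lower uninduced array was close to the induced pair, and the log2 difference was -0.23 ± 0.13 (adjusted p = 0.506). EFNA1, a ligand of EPHA2, read 114.8 and 112.6 without and 131.9 and 114.3 with induction, with 1 array of each group above background, at 0.17 ± 0.13 (adjusted p = 0.631). EFNA4, EFNB1 and EFNB3 lay between -0.15 and 0.15.

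Among the semaphorins 0 of 14 passed on induction in limma, and 2 had an unadjusted p under 0.05 (SEMA3C and SEMA4B). SEMA3C (ILMN_1695475; chromosome 7, 80742538 to 80922389), a secreted semaphorin that binds neuropilins, read 245.4 and 265.8 without and 206.6 and 202.6 with induction. The empty-vector line read 254.3 and 239.6 without and 251.7 and 271.2 with doxycycline, so the induced ΔNp63α arrays were the lowest of the 8. The log2 difference was -0.40 ± 0.11, with a 95% interval from -0.63 to -0.17 (adjusted p = 0.081). SEMA4B, a membrane-bound semaphorin, read 132.2 and 134.0 without and 147.7 and 161.6 with induction, against 127.4 to 133.9 in the empty-vector line, which put the induced arrays highest. Its log2 difference was 0.31 ± 0.10 (adjusted p = 0.173). SEMA3A, the class 3 semaphorin known for collapsing growth cones, had a log2 difference of 0.21 ± 0.10 (adjusted p = 0.417).

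Further along chromosome 7 than SEMA3C, which ends at position 80922389, lie 3 other class 3 semaphorin genes. They are SEMA3E, which starts at position 83363238, SEMA3A and SEMA3D, the last of which ends at position 85250243. The log2 differences of these 3 genes on induction were -0.04 for SEMA3E, 0.21 for SEMA3A and 0.15 for SEMA3D, beside -0.40 for SEMA3C. The remaining semaphorins tested, SEMA3B, SEMA3F, SEMA4C, SEMA4D, SEMA4F, SEMA4G, SEMA5A and SEMA6B, lay between -0.12 and 0.16. SEMA7A was not above background on the uninduced ΔNp63α arrays and was above it on 1 induced array, at 117.1. The semaphorin median was -0.03.

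The plexins had a median of 0.14, which was 0.080 with no filter on dim probes, and 0 of 7 passed in limma, while 3 had an unadjusted p under 0.05 (PLXNA1, PLXNA2 and PLXNB1). PLXNA1 (ILMN_1791569; chromosome 3, 126983115 to 127037389), a plexin that can pair with NRP1 to receive SEMA3A, read 229.2 and 186.8 without and 312.0 and 265.4 with induction. It read 222.1 and 239.7 without and 187.9 and 214.5 with doxycycline in the empty-vector line. The induced ΔNp63α arrays were the highest of the 8. The log2 difference was 0.58 ± 0.15, with a 95% interval from 0.26 to 0.91 (adjusted p = 0.066). PLXNA1 passed with a trended, robust variance estimate (adjusted p = 0.046) and when the replicate number entered as a block (0.046). It stood at 0.40 without uninduced ΔNp63α replicate 2 (adjusted p = 0.353).

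PLXNA2 (ILMN_1844408; chromosome 1, 208022242 to 208244384), another A-type plexin, read 131.0 and 136.3 without and 156.6 and 152.8 with induction, a log2 difference of 0.31 ± 0.11 (adjusted p = 0.202). A dimmer PLXNA2 probe, above background on 5 of 8 arrays, read 0.00. PLXNB1, the receptor of SEMA4D, read 135.6 and 126.0 without and 155.2 and 144.3 with induction, at 0.29 ± 0.11 (adjusted p = 0.253). SEMA4D itself stood at 0.16 ± 0.12 (adjusted p = 0.657). PLXNB2, a receptor of SEMA4C, read 482.7 and 513.6 without and 556.8 and 531.3 with induction, at 0.14 ± 0.10 (adjusted p = 0.643), and PLXNA3, PLXNA4 and PLXND1 lay between -0.14 and -0.02.

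The neuropilins gave small differences. NRP1, which also binds VEGF, read 1622.2 and 1695.5 without and 2026.0 and 1594.7 with induction, and 1361.5 to 1727.1 in the empty-vector line. Its groups overlapped, with a log2 difference of 0.12 and a 95% interval from -0.21 to 0.45, and a further NRP1 probe at 306.9 to 369.2 read 0.02. NRP2 was dim, at 112.3 to 131.8 over the 8 arrays, with 0.05 and an interval from -0.22 to 0.33. Larger changes of NRP1, on the scale used, lay outside its interval. For NRP2, which was close to background, the offset understates changes, so the interval does not bound the change of its transcript.

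**Figure D2:**
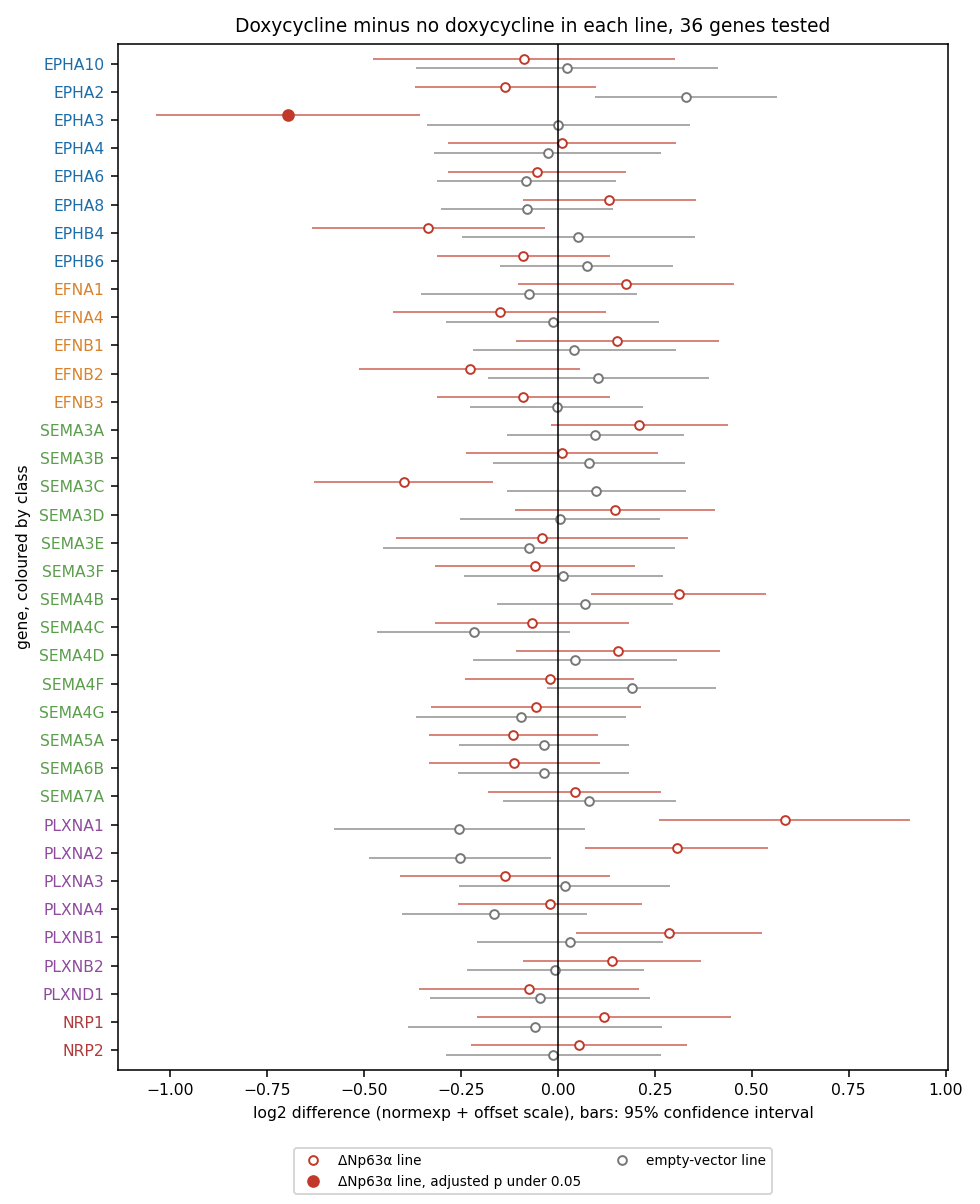
Points give the log2 difference between doxycycline and no doxycycline (normexp plus offset scale) in the ΔNp63α line and the empty-vector line for the 36 genes tested, with 95% confidence intervals from limma; filled points have an adjusted p under 0.05. EPHA3 at -0.70 in the ΔNp63α line is the 1 filled point, and PLXNA1 at 0.58 lies farthest to the right. EPHB6 and SEMA7A, each below background in 2 groups, are drawn at their fitted values.

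Over the 36 tested members the arrays of the groups did not overlap for 19 on induction, 9 higher and 10 lower, or 52.8%, while for 43.2% of all genes they did not overlap. The median log2 difference of the members was -0.03 and their range -0.70 to 0.58.

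**Figure D3:**
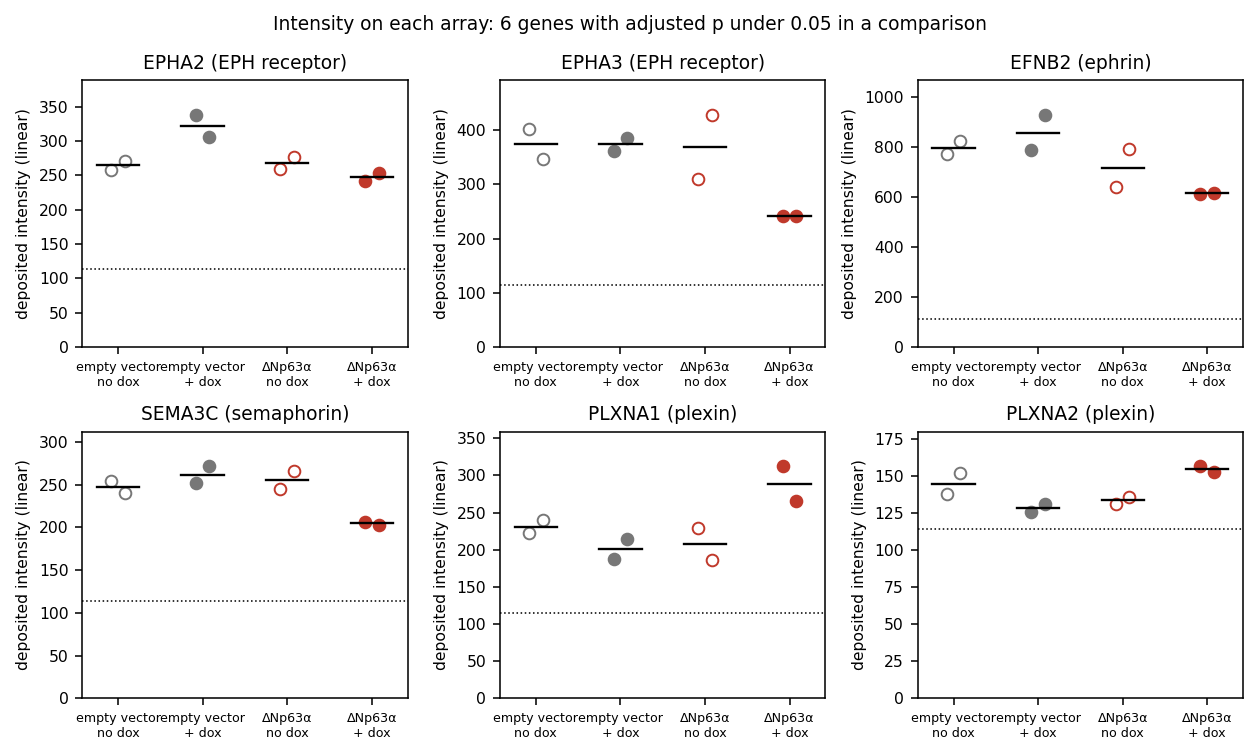
Each panel gives the deposited intensity (linear axis from 0) on the 8 arrays for 1 of the 6 genes with an adjusted p under 0.05 in any comparison; points are arrays, grey for empty vector and red for ΔNp63α, open without and filled with doxycycline, bars are group means and the dotted line is the background level of 114.3. The induced ΔNp63α arrays are lowest for EPHA3, EPHA2, EFNB2 and SEMA3C and highest for PLXNA1 and PLXNA2.

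Doxycycline alone, in the empty-vector line, gave 0 of 36 calls in limma (smallest adjusted p = 0.990), and 0% of all genes were called. At an unadjusted p under 0.05 there were 2 members, EPHA2 and PLXNA2, against 4.38% of all genes. EPHA2 read 258.2 and 271.2 without and 338.0 and 305.6 with doxycycline, so both treated arrays were higher, at a log2 difference of 0.33 ± 0.11 (adjusted p = 0.990). PLXNA2 read 138.0 and 152.1 without and 126.1 and 131.5 with it, at -0.25 ± 0.11 (adjusted p = 0.990). The dimmer PLXNA2 probe read -0.04. PLXNA1 gave -0.25 ± 0.15, EFNB2 0.10 ± 0.13, SEMA3C 0.10 ± 0.11 and SEMA4F, a membrane-bound semaphorin, 0.19 ± 0.10. The arrays of the groups did not overlap for 9 members, or 25% (34.2% of all genes), and the median of the members was 0.00.

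Before induction the ΔNp63α line and the empty-vector line differed in 0 of 36 members by limma (smallest adjusted p = 0.406), where 0.0484% of all genes were called. At an unadjusted p under 0.05 there was 1 member (2.78%, against 10% of all genes), EPHB4, described above. EPHB6, a kinase-inactive receptor, read 115.7 and 122.2 in the empty vector and 108.7 and 112.1 in the ΔNp63α line. The latter were not above background, so the level there has only a bound. The empty-vector mean was 1.06-fold above this bound, a figure that leaves out the spread between arrays. A difference in EPHB6 was not shown, since the interval of the fit, from -0.40 to 0.05, included 0 (adjusted p of the fit = 0.608). SEMA4G, a membrane-bound semaphorin, read 158.1 and 164.0 against 186.5 and 177.2, at 0.24 ± 0.12 (adjusted p = 0.561). EPHA3 (-0.04), EPHA2 (0.02), SEMA3C (0.06), EFNB2 (-0.18), PLXNA1 (-0.20) and PLXNA2 (-0.17) all had intervals that included 0. The arrays did not overlap for 16 members, or 44.4%, against 42.3% of all genes.

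With doxycycline in both lines, 6 of 36 members differed between the ΔNp63α line and the empty vector. EPHA3, EPHA2, EFNB2 and SEMA3C were lower and the plexins PLXNA1 and PLXNA2 were higher. Of all genes 9.74% were called in this comparison, 4.64% higher and 5.09% lower, and of the EPH receptors 2 of 8, of the ephrins 1 of 5, of the semaphorins 1 of 14, of the plexins 2 of 7 and of the neuropilins 0 of 2. This comparison shares the induced ΔNp63α arrays with the one on induction, so its values are not independent of those above. It also holds any difference between the lines that was there without doxycycline. At an unadjusted p under 0.05 there were 10 members, or 27.8%, against 23.7% of all genes, and the arrays did not overlap for 18, or 50%, against 52.3%.

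The levels are those given above. EPHA3 stood at a log2 difference of -0.74 ± 0.16, 1.67-fold lower (limma adjusted p = 0.013), beside -0.70 on induction. On the dimmer EPHA3 probe, ILMN_1782076, the difference was -0.20 here and -0.22 between the untreated lines. EPHA2 stood at -0.45 ± 0.11, 1.36-fold lower (adjusted p = 0.023), beside -0.14 on induction. Its empty-vector arrays with doxycycline, 338.0 and 305.6, were the highest of the 8. EFNB2 stood at -0.51 ± 0.13, 1.42-fold lower (adjusted p = 0.032), with 788.0 and 929.4 in the empty vector against 614.6 and 616.1. SEMA3C stood at -0.44 ± 0.11, 1.35-fold lower (adjusted p = 0.024), beside -0.40 on induction.

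PLXNA1 and PLXNA2 were the members that were higher. PLXNA1 stood at 0.64 ± 0.15, 1.56-fold higher (limma adjusted p = 0.020), and PLXNA2 at 0.39 ± 0.11, 1.31-fold higher (adjusted p = 0.044). The dimmer PLXNA2 probe read 0.16, and with the mean of the kept probes PLXNA2 was not called (0.27, adjusted p = 0.118). SEMA4B was just outside the threshold, at 0.34 ± 0.10 (adjusted p = 0.064). EPHB6 read 121.5 and 124.2 in the empty vector and 108.5 and 104.5, not above background, in the ΔNp63α line. Its level there has only a bound, set from the lowest signal above background on each array. The empty-vector mean was 1.12-fold above this bound, a figure that leaves out the spread between arrays. EPHB6 did not pass (adjusted p of the fit = 0.059). NRP1 at 0.24 ± 0.15 (adjusted p = 0.375) and NRP2 at 0.18 ± 0.13 (adjusted p = 0.434) did not pass.

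The count of 6 depended on single arrays and on the processing. It was 3 without empty-vector dox replicate 1 (EFNB2, EPHA3 and SEMA3C), 1 without empty-vector dox replicate 2 (PLXNA1), 1 without ΔNp63α dox replicate 1 (EPHA3) and 1 without ΔNp63α dox replicate 2 (PLXNA1), and 3 with only the 4 arrays compared (EFNB2, EPHA3 and PLXNA1). Without either uninduced empty-vector array it was 4 (EPHA2, EPHA3, PLXNA1 and SEMA3C), and without either uninduced ΔNp63α array 5, with PLXNA2 lost. With an offset of 16 EFNB2 was lost (-0.53, adjusted p = 0.055) while EPHB6 and SEMA4B were called, which made 7. Of these, EPHB6 was tested only through its empty-vector arrays. With no background correction (0.26, adjusted p = 0.067) and with the most variable probe of each gene (0.39, adjusted p = 0.051) PLXNA2 was lost, which left 5. In each of these fits the log2 differences of the 6 genes kept their sign.

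**Figure D4:**
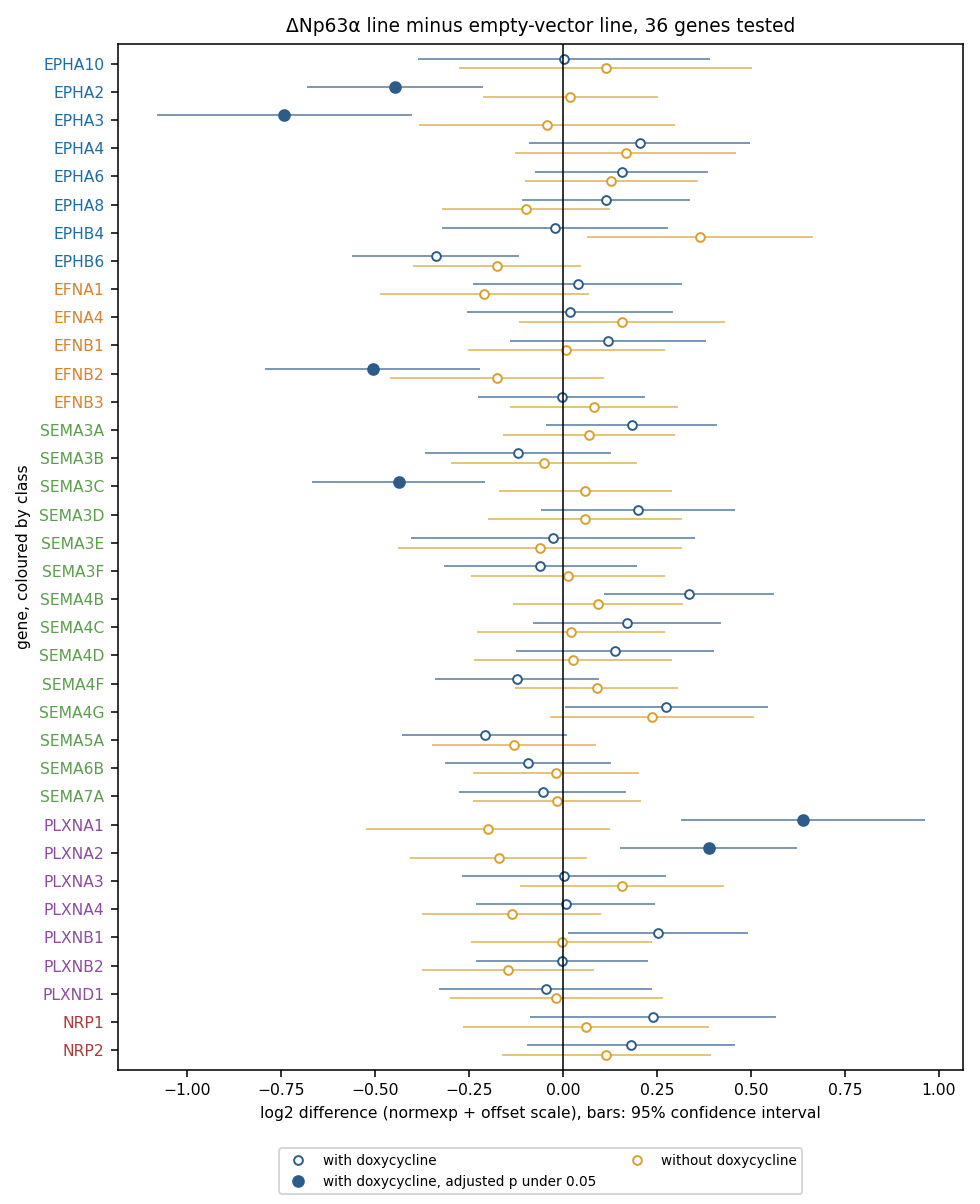
Points give the log2 difference between the ΔNp63α line and the empty-vector line (normexp plus offset scale), without and with doxycycline, for the 36 genes tested, with 95% confidence intervals from limma; filled points have an adjusted p under 0.05. The 6 filled points are all with doxycycline, 4 to the left (EPHA3, EFNB2, EPHA2 and SEMA3C) and 2 to the right (PLXNA1 and PLXNA2). EPHB6 and SEMA7A, each below background in 2 groups, are drawn at their fitted values.

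Whether doxycycline acted differently in the ΔNp63α line and the empty vector was tested as an interaction. No member passed it in limma (0 of 36, smallest adjusted p = 0.126), while 0.727% of all genes did, and 5 had an unadjusted p under 0.05 against 8.51% of all genes. They were PLXNA1 at 0.84 ± 0.21 (adjusted p = 0.126), PLXNA2 at 0.56 ± 0.15 (adjusted p = 0.174), SEMA3C at -0.50 ± 0.15 (adjusted p = 0.251), EPHA3 at -0.70 ± 0.22 (adjusted p = 0.296) and EPHA2 at -0.47 ± 0.15 (adjusted p = 0.313). The dimmer kept probes of PLXNA2 and EPHA3 read 0.03 and 0.01 for the interaction. EFNB2 stood at -0.33 ± 0.18 (adjusted p = 0.695). Opposite directions in the lines, with arrays that did not overlap in either, were seen for 4 of 36 members and for 6.18% of all genes. For these genes a doxycycline effect that differs between the lines was therefore not shown at the threshold, and none is shown to be absent.

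Genes that work downstream of or beside these receptors were counted from 3 lists. On induction 0 of 21 tested EPH receptor effectors, 0 of 27 plexin and neuropilin effectors and co-receptors and 0 of 9 other guidance genes (netrins, slits and their receptors) passed in limma. Their median log2 differences were 0.06, 0.06 and 0.09. At an unadjusted p under 0.05 there were 2, 5 and 1 genes in these lists, or 9.52%, 18.5% and 11.1%, where the share over all genes was 13.6% (2.73% after adjustment). Of the other guidance genes, 12 of 21 with a probe were above background on both arrays of no group.

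With doxycycline in both lines, 1 EPH receptor effector was lower in the ΔNp63α line, and 1 plexin effector or co-receptor was higher and 2 were lower, or 4.76% and 11.1% of the genes tested, beside the 9.74% over all genes. CHN1, which encodes a Rac-inactivating protein that acts below EPHA4 in mouse neurons, read 586.5 and 719.6 in the empty vector and 422.0 and 410.9 in the ΔNp63α line. Its log2 difference was -0.70 ± 0.12, 1.63-fold lower (limma adjusted p = 0.0047), beside -0.34 ± 0.12 on induction (adjusted p = 0.201). In the empty-vector line CHN1 read 536.5 and 486.7 without doxycycline, a log2 difference of 0.38 ± 0.12 with it (adjusted p = 0.990). CHN1 kept its call under every alternative run, each array left out included.

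DPYSL2, also known as CRMP2, carries the signal of SEMA3A to microtubules. It read 5198.6 and 5504.1 against 3636.1 and 4187.3, at -0.46 ± 0.11 (adjusted p = 0.026). RND3, which lowers actomyosin contraction, read 532.8 and 524.4 against 404.2 and 367.8, at -0.51 ± 0.13 (adjusted p = 0.029), with 0.01 ± 0.13 on induction. The uninduced lines already stood at 572.1 and 469.1 against 360.7 and 409.5. MET, the receptor tyrosine kinase that associates with PLXNB1, was higher, at 527.7 and 472.8 against 611.6 and 688.3, or 0.41 ± 0.11 (adjusted p = 0.044).

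The calls of DPYSL2, RND3 and MET each depended on single arrays, and those of DPYSL2 and MET also on the processing. DPYSL2 was not called without empty-vector dox replicate 1 (-0.50) or 2 (-0.42) or ΔNp63α dox replicate 1 (-0.36). RND3 was not called without empty-vector dox replicate 1 (-0.49) or 2 (-0.52) or ΔNp63α dox replicate 2 (-0.43). MET was not called without either uninduced empty-vector array (0.41), empty-vector dox replicate 1 (0.50) or 2 (0.32), or ΔNp63α dox replicate 2 (0.32). With an offset of 16 DPYSL2 (-0.46, adjusted p = 0.066) and MET (0.44, adjusted p = 0.084) were not called, nor with only the 4 arrays compared (adjusted p = 0.060 and 0.091). MET was also not called with a trended, robust variance estimate (adjusted p = 0.067) or with the most variable probe of each gene (adjusted p = 0.050).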

How the data were processed

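Biotin-labelled cRNA from total RNA was hybridised to 8 single-colour Illumina arrays, per the labels' protocols. The authors deposited linear probe intensity values for 47304 probes. Their software is not given in the sources used here, and the values (each array with a median of 113.5) look quantile normalised without background subtraction. A second deposited table was not used, since its 16 columns of per-sample values match no sample label.

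Intensities were corrected with normexp (offset 50, which understates the change of dim genes) and put on a log2 scale in limma 3.58.1 (R 4.3.3). The background level of 114.3 is the mode, 106.9, plus 1.645 times 4.52, the mirrored SD of the values at or below it. Of 30105 probes with 1 symbol in the platform annotation, the brightest kept probe per gene gave 12385 genes. Group means were fitted over all 8 arrays (4 residual and 7.48 prior degrees of freedom), with two-sided tests in 5 comparisons and adjustment over all genes. The fit was tested on simulated data.

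Members, lists and alternatives were chosen with earlier results of these data known. Members called in any comparison, those with an absolute log2 difference of 0.58 or more, the 12 with the smallest p on induction and the 3 smallest in each other comparison were named, as were list genes that passed. A further gene list is not reported here. The number of arrays limits the precision.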

Additional observations from a re-analysis of the deposited data

Results flagged for a closer look

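In all, 4 genes of the family, EPHA2, EPHA8, PLXNA1 and PLXNA2, were noted because both doxycycline arrays moved one way against both untreated arrays in the ΔNp63α line and the opposite way in the empty-vector line. This held for 4 of 36 tested members and for 6.18% of all genes. The interaction estimate, the log2 effect in the ΔNp63α line minus that in the empty vector, was 0.84 for PLXNA1, 0.56 for PLXNA2, -0.47 for EPHA2 and 0.21 for EPHA8. None passed the interaction test in limma (adjusted p = 0.126, 0.174, 0.313 and 0.774). EPHA8 was close to background, at 122.8 to 136.5 on the 8 arrays. On the dimmer PLXNA2 probe the opposite directions were not seen, with -0.0047 in the ΔNp63α line and -0.038 in the empty-vector line.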

How the results depend on the processing

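Members called on induction numbered 0 with no background correction, with the mean of the kept probes and with only the arrays compared, 2 with a trended, robust variance estimate, 2 with the replicate number as a block, and 0 to 1 with each array left out. With doxycycline in both lines the count of 6 became 3 with only the arrays compared and 1 to 5 with each array left out, and 8 with the replicate block. In the other 3 comparisons it was 0 in limma under every alternative run, the block included. The labels do not say what the replicate number stands for, and deviations of same-numbered arrays correlated at 0.0403 to 0.432 over genes. Calls over all genes moved from 338 on induction to between 181 and 501 (119 to 340 with an array left out), from 1206 between the treated lines to between 717 and 1665 (380 to 1158), from 90 for the interaction to between 59 and 155 (33 to 96) and from 6 between the untreated lines to between 3 and 37 (0 to 6).

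Class medians on induction moved with an offset of 16 to -0.16 (ephrins) and -0.15 (EPH receptors), with no filter to 0.050 (ephrins), and with only genes above background on all 8 arrays to 0.29 (plexins, which stood at 0.080 with no filter and 0.074 with the most variable probe). With each array left out they spanned -0.18 to -0.0046 (ephrins), -0.16 to -0.050 (EPH receptors) -0.044 to 0.054 (semaphorins) and 0.090 to 0.19 (plexins). Values near 0 changed sign: EPHA3 with doxycycline in the empty vector (-0.059 with the mean of its probes, -0.12 to 0.12 with an array left out) and EFNB2 there (-0.021 to 0.23), and, between the untreated lines, EPHA2 (-0.038 to 0.078), EPHA3 (-0.31 to 0.22) and SEMA3C (-0.010 to 0.13). Of 740 values of named genes recomputed, 673 kept direction and side of the threshold, 56 lost the call, 2 gained it and 9 changed sign. The cause of these moves was not tested. Only values called in the fit reported above could lose a call, and most of the named values were not called there. The 673 therefore says little about how firm the calls were. With 2 arrays per group and many probes near background, small changes were not measurable.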
